A study of Homo sapiens with 4 samples.

Results

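The comparison described here is 13-cis-retinoic acid (13cRA, isotretinoin) given alone against vehicle, in cells of CHP134, a human neuroblastoma line. The cells were exposed for 24 h, and single live cells were picked by imaging in a nanowell chip and read by full-length single-cell RNA sequencing. The series has 4 samples, 1 per treatment. Cells received 13cRA at 5 µM or DMSO at 0.04%. In the other two samples they received 13cRA at 5 µM together with doxazosin at 10 µM (the combination below), or doxazosin alone at 10 µM. All come from the same line, which is the only model tested. Cells were assigned by their labelled treatment and kept where at least 500 genes were detected and at most 25% of the counts came from mitochondrially encoded genes. This left 318 of 355 13cRA cells and 353 of 373 DMSO cells. These are 671 of the 1197 kept cells and of 1287 cells in all. The combination and doxazosin libraries, with 287 and 239 kept cells, form a second pair, with and without the same 13cRA dose. The 2 pairs share no library.

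With 1 sample per treatment, no test across samples was possible, and every difference below compares libraries and has no replicate check. Levels are CPM, the summed counts of a library's kept cells scaled to a total of 1000000. Differences are log2((CPM + 1)/(CPM + 1)), 13cRA over DMSO or the combination over doxazosin, and genes are called by size alone, at 2-fold or more. The 13cRA library held 22636509 counts and the DMSO library 48164169, with medians of 59200.5 and 122615 counts per cell. When each cell was thinned to 34000 counts, 249 13cRA cells and 328 DMSO cells remained, still with fewer genes in 13cRA cells. The medians were 3895 genes in 13cRA cells and 4679.5 in DMSO cells, and 4705 in combination cells and 4771 in doxazosin cells. The median share of mitochondrially encoded counts was 13.2% in 13cRA cells and 10.6% in DMSO cells. These library properties move with the treatment, and the part they have in a result was not tested unless a value is given beside it. Of 13 neuroblastoma markers, 11 reached 5 CPM, while TH and DBH, enzymes of noradrenaline synthesis, were at or near 0 in both libraries.

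Retinoic acid acts through nuclear receptors of the RAR family paired with RXR partners, which sit on paired short motifs in DNA, recruit corepressors without ligand and exchange them for coactivators when ligand binds. RARB is the textbook target, because its own promoter carries a direct repeat of such motifs spaced by 5 bases, the DR5 retinoic acid response element. In neuroblastoma, retinoids slow growth and drive neurite outgrowth, and 13cRA is used in treatment. The upstream 250 bases of the RARB promoter are shown because they carry that element (RefSeq, GRCh38.p14, chr3:25428013-25428262, plus strand, ending at the base before the annotated start), with both hexamers in capitals.
RARB: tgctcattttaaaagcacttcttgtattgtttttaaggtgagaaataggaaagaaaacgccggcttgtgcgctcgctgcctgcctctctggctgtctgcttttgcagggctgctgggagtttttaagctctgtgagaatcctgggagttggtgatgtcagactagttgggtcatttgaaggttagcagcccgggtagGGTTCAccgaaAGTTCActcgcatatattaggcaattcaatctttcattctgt

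RARB, a retinoic acid receptor gene, stood at 23.6 CPM in 13cRA and 1.27 CPM in DMSO cells, and at 27.6 CPM in combination and 3.27 CPM in doxazosin cells. The 95% Poisson intervals, which cover counting error only since the reads carry no molecular identifiers, were 21.6 to 25.7 CPM in 13cRA cells and 0.969 to 1.63 CPM in DMSO cells. Its count was high in both libraries with 13cRA and near 0 in both without, and 18.1% of thinned 13cRA cells held a count of it, against 2.44% of DMSO cells. A search of both strands for 2 hexamers (each AGGTCA or one of its variants AGTTCA and GGGTCA and also GGTTCA) in the same orientation and spaced by 5 bases found 22 of 27305 RefSeq promoters (0.0806%), each read over 250 bases before the start and 50 bases from it. Among measured genes 3 promoters held it, and these genes are named for the motif and not for their level. The elements, written on the strand of the gene, were the following.
RARB: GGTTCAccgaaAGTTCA
HROB: TGAACCagtgcTGAACC
PHF8: TGAACTgtattTGAACT
HROB, a DNA repair gene, had log2 differences of -0.62 with 13cRA alone and -0.70 beside doxazosin. PHF8, a histone demethylase gene, had log2 differences of 0.45 with 13cRA alone and 0.22 beside doxazosin. Of the 3, only RARB was 2-fold or more higher with 13cRA in both pairs. No promoter of the 220 matched genes that were at least 2-fold higher held the same repeat spaced by 1 or 2 bases, which says only that these letters are not in this window. Of 5314 promoters of measured genes, 11 (0.207%) held it spaced by 1 base and 1 (0.0188%) by 2 bases, so none among 220 is near these shares. Spaced by 5 bases, it was in 1 of the 220 (0.455%) and 3 of the 5314 (0.0565%).

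Among 6452 genes with a symbol of their own and at least 20 CPM in 1 of the 2 libraries, 283 (4.39%) were at least 2-fold higher in 13cRA cells than in DMSO cells and 174 (2.7%) were at least 2-fold lower. The median difference over all of them was -0.05. In the second pair, 138 of 6246 genes (2.21%) were at least 2-fold higher in combination cells than in doxazosin cells and 71 (1.14%) were lower. Of the 138 higher ones, 123 (89.1%) were also higher in 13cRA cells than in DMSO cells, 85 of them by 2-fold or more, against 43.6% of all genes measured in the second pair. Of the 71 lower ones, 52 (73.2%) were also lower in 13cRA cells, 20 by 2-fold or more, against 56.4% of all. Without the 3 cells of highest count of each gene in each library, an alternative chosen after seeing the data, the counts with 13cRA alone were 133 higher and 289 lower. No gene of the 2 sets from the second pair was past 2-fold on the opposite side. Starting from the first pair, whose level minimum admits other genes, 97 of the 283 genes higher with 13cRA alone (34.3%) and 22 of the 174 lower ones (12.6%) were past 2-fold in both pairs. Over the genes higher in both, the difference was larger without doxazosin for 62 and smaller for the rest.

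**Figure D1:**
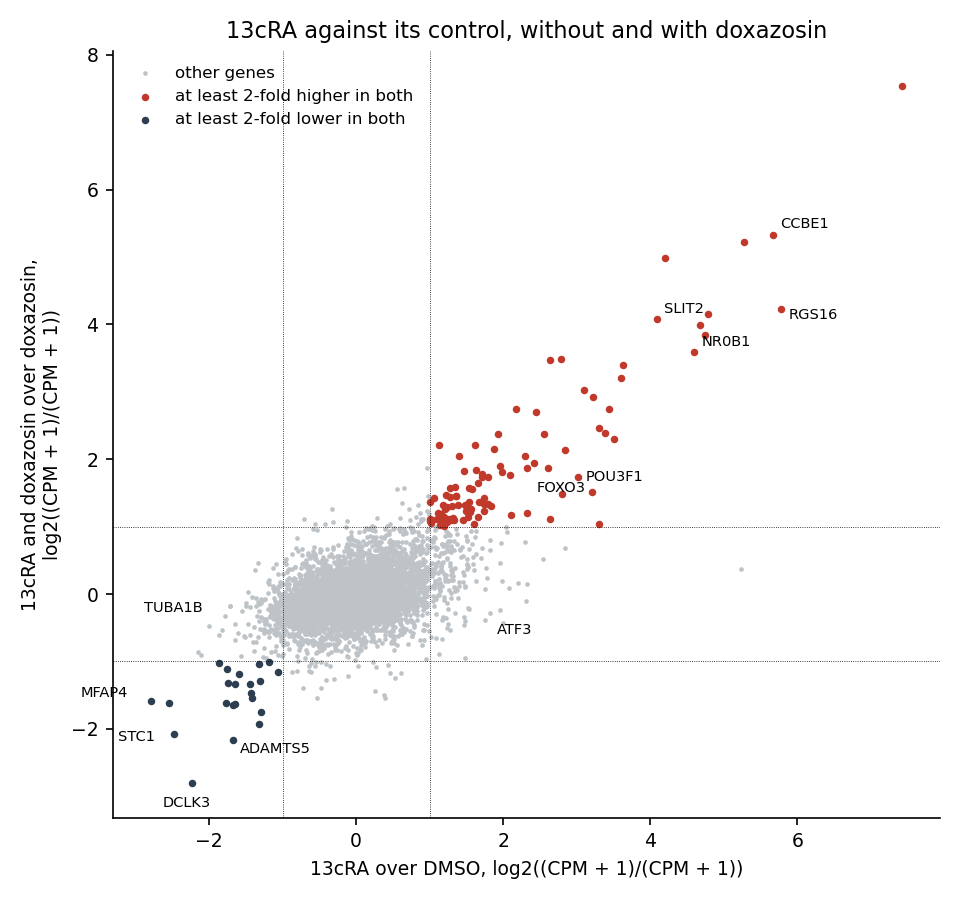
Each point is 1 of 6452 genes, placed by its log2 difference of 13cRA over DMSO (horizontal) and of the combination over doxazosin (vertical); dotted lines mark 2-fold. The 97 genes higher in both pairs (red) stretch along the diagonal far from the cloud, the 22 lower in both (dark) lie closer to it, and genes such as TUBA1B and ATF3 are past 2-fold with 13cRA alone only.

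The largest differences belonged to genes that were nearly silent in both libraries without 13cRA. CCBE1, which encodes a secreted protein needed for lymphatic vessel growth, stood at 66.5 CPM in 13cRA and 0.332 CPM in DMSO cells, and at 54.99 CPM in combination and 0.3899 CPM in doxazosin cells. PLEKHA6, a pleckstrin-homology protein of cell junctions, stood at 67.7 CPM in 13cRA and 1.49 CPM in DMSO cells, and at 54.1 CPM in combination and 2.08 CPM in doxazosin cells. NR0B1, the orphan nuclear receptor DAX1 that represses steroidogenic transcription, stood at 33.3 CPM in 13cRA and 0.415 CPM in DMSO cells, and at 23.5 CPM in combination and 1.04 CPM in doxazosin cells. For NR0B1 the 95% Poisson intervals, which cover counting error only, were 30.97 to 35.8 CPM in 13cRA cells and 0.254 to 0.641 CPM in DMSO cells. The cells that held them were a minority that was almost absent under DMSO: CCBE1 was counted in 42.97% of thinned 13cRA cells and 0.6098% of DMSO cells, PLEKHA6 in 43.8% and 2.13%, and NR0B1 in 28.5% and 0.915%. BMF, a BH3-only gene of the apoptosis pathway, had log2 differences of 3.50 with 13cRA alone and 2.30 beside doxazosin. ANGPT1, a secreted ligand of the TIE2 receptor, had log2 differences of 3.22 with 13cRA alone and 2.93 beside doxazosin. ENPP2, which encodes the lysophospholipase autotaxin, had the largest difference of all named genes, 7.43 without and 7.54 with doxazosin.

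Genes of retinoid reception and metabolism were the list with the highest median difference, 0.70 over 15 of 29 genes at 5 CPM or more in 1 of the libraries, against 0.00158 over all 10214 genes at that level. Of the 15, 6 were at least 2-fold higher and 0 lower, where 7.57% and 3.74% of all genes at 5 CPM were; 2 of them reached 5 CPM in 13cRA cells only. With 5 CPM required of the mean of the 4 libraries, 15 genes were measured with a median of 0.70. In the second pair the median was 0.63, and in thinned cells of 4000 to 4600 genes the median with 13cRA alone was 0.27. CRABP2, a carrier that delivers retinoic acid to the nucleus, stood at 42.01 CPM in 13cRA and 17.4 CPM in DMSO cells, and at 47.8 CPM in combination and 16.6 CPM in doxazosin cells. In cells of 4000 to 4600 genes the differences with 13cRA alone were 0.92 for CRABP2 and 0.28 for RARA, under 2-fold. The receptors themselves differed in their values. RARA stood at 13.8 CPM in 13cRA and 6.25 CPM in DMSO cells, and at 7.98 CPM in combination and 5.09 CPM in doxazosin cells. RARG stood at 10.4 CPM in 13cRA and 6.04 CPM in DMSO cells, and at 15.2 CPM in combination and 5.54 CPM in doxazosin cells, with the larger difference beside doxazosin. RXRA stood at 20.9 CPM in 13cRA and 14.3 CPM in DMSO cells, and at 18.3 CPM in combination and 8.81 CPM in doxazosin cells. Without the 3 cells of highest count in each library its differences were -0.03 with 13cRA alone and 0.07 beside doxazosin, and in cells of 4000 to 4600 genes the difference with 13cRA alone was -0.27. RXRB stood at 6.71 CPM in 13cRA and 8.99 CPM in DMSO cells, and at 10.6 CPM in combination and 9.79 CPM in doxazosin cells. RXRA and RXRB were under 2-fold with 13cRA alone, and RXRG had under 3 CPM in each of the 4 libraries.

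The homeobox and basic helix-loop-helix lists did not lie on 1 side. Of 35 of 51 homeobox genes outside the HOX clusters, 3 were at least 2-fold higher and 5 lower, with a median of 0.14. With 5 CPM required of the mean of the 4 libraries, 3 of 32 were higher and 3 lower. Of 32 of 53 basic helix-loop-helix genes, 3 were at least 2-fold higher and 1 lower, with a median of -0.17. Over all genes at 5 CPM, 7.57% were higher and 3.74% lower. Other factor lists lay higher, with medians of 0.24 (forkhead), 0.31 (GATA, KLF, EGR and TFAP2) and 0.32 (other nuclear hormone receptors). Beside doxazosin these were 0.04, -0.06 and -0.36. Without the 3 cells of highest count, the GATA and nuclear receptor medians with 13cRA alone were -0.05 and -0.14. Single factors on either side are given next. POU3F1, the POU-domain factor OCT6 known from neural and Schwann cell development, stood at 72.1 CPM in 13cRA and 8.04 CPM in DMSO cells, and at 38.8 CPM in combination and 10.98 CPM in doxazosin cells. Its difference of 3.02 ranged from 2.30 to 3.08 over the alternative ways of processing. FOXO3, a forkhead factor that is held out of the nucleus by AKT, stood at 139 CPM in 13cRA and 21.97 CPM in DMSO cells, and at 65.01 CPM in combination and 17.1 CPM in doxazosin cells. Both were higher in each library with 13cRA than in each library without it. ALX4, a homeobox factor, had log2 differences of 2.64 with 13cRA alone and 3.47 beside doxazosin. ISL1, a LIM homeobox factor of sympathetic and motor neurons, had log2 differences of -2.11 with 13cRA alone and -0.90 beside doxazosin. GLI3, a transcription factor of the hedgehog pathway, stood at 76.1 CPM in 13cRA and 27.1 CPM in DMSO cells, and at 61.8 CPM in combination and 28.4 CPM in doxazosin cells. The hedgehog list's median was 0.64 over 11 of 19 genes with 13cRA alone and 0.22 beside doxazosin. JUN, the AP-1 subunit, stood at 44.4 CPM in 13cRA and 6.27 CPM in DMSO cells, and at 18.5 CPM in combination and 8.04 CPM in doxazosin cells. MYT1L, a zinc finger factor of neurons, had log2 differences of 1.82 with 13cRA alone and 0.65 beside doxazosin. Both of these differences were smaller beside doxazosin. NEUROD1, a neurogenic basic helix-loop-helix factor, was lower with 13cRA alone, at 221 CPM in 13cRA and 465 CPM in DMSO cells, and at 449 CPM in combination and 547 CPM in doxazosin cells. In cells of 4000 to 4600 genes its difference was -0.93, under 2-fold.

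Named genes of intracellular signalling are given next, singly and not as a list. RGS16 and RGS8 encode proteins that speed the shut-off of G-protein alpha subunits and lie next to each other on chromosome 1, 37407 bases apart in GENCODE 29. RGS16 stood at 122 CPM in 13cRA and 1.25 CPM in DMSO cells, and at 58.1 CPM in combination and 2.14 CPM in doxazosin cells. RGS8 stood at 37.1 CPM in 13cRA and 1.08 CPM in DMSO cells, and at 33.6 CPM in combination and 0.0866 CPM in doxazosin cells. PIK3R1, the regulatory subunit of phosphoinositide 3-kinase, stood at 178 CPM in 13cRA and 44.1 CPM in DMSO cells, and at 126 CPM in combination and 35.1 CPM in doxazosin cells. It was counted in 63.5% of thinned 13cRA cells and 48.2% of DMSO cells. SKIL, a corepressor that binds SMAD proteins, stood at 121 CPM in 13cRA and 46.4 CPM in DMSO cells, and at 142 CPM in combination and 50.9 CPM in doxazosin cells. USP2, a deubiquitinase, had log2 differences of 2.44 with 13cRA alone and 2.71 beside doxazosin. RND2, a small GTPase of neurons, had log2 differences of 1.09 with 13cRA alone and 0.99 beside doxazosin, and 0.64 in cells of 4000 to 4600 genes. DUSP2, a phosphatase that inactivates MAP kinases, stood at 27.6 CPM in 13cRA and 8.41 CPM in DMSO cells, and at 11.6 CPM in combination and 8.79 CPM in doxazosin cells. Its difference with 13cRA alone was 1.60, and 0.92 in cells of 4000 to 4600 genes.

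Several single genes of the cytoskeleton, membrane and secretory pathway were higher, while the list of actin filament genes was not. Of 56 of 66 actin filament genes, 35 were lower and 1 was at least 2-fold higher, with a median of -0.14. Of all genes at 5 CPM, 49.9% were lower and 7.57% at least 2-fold higher. COTL1, an F-actin-binding protein, stood at 213 CPM in 13cRA and 42.5 CPM in DMSO cells, and at 180.2 CPM in combination and 43.01 CPM in doxazosin cells. MYO10, the myosin of filopodial tips, had log2 differences of 2.33 with 13cRA alone and 1.20 beside doxazosin. AP2A2, the alpha subunit of the clathrin adaptor AP-2, stood at 100.2 CPM in 13cRA and 21.5 CPM in DMSO cells, and at 83.5 CPM in combination and 11.6 CPM in doxazosin cells. These 3 were spread widely over the cells, with counts in 75.9%, 59.8% and 69.9% of thinned 13cRA cells against 50.3%, 25.9% and 32.6% of DMSO cells. SCG2, a granin of neuroendocrine secretory granules, stood at 245 CPM in 13cRA and 33.4 CPM in DMSO cells, and at 189 CPM in combination and 41.95 CPM in doxazosin cells. CPD, a carboxypeptidase of the secretory pathway, had log2 differences of 1.87 with 13cRA alone and 2.15 beside doxazosin. CNTN2, an axonal adhesion protein of the immunoglobulin family, had log2 differences of 2.42 with 13cRA alone and 1.94 beside doxazosin. QPRT, the quinolinate phosphoribosyltransferase of NAD synthesis, stood at 223 CPM in 13cRA and 63.8 CPM in DMSO cells, and at 169 CPM in combination and 50.03 CPM in doxazosin cells. It was counted in 93.2% of thinned 13cRA cells and 67.7% of DMSO cells. CRMP1, a mediator of semaphorin signalling in growth cones, had log2 differences of 1.24 with 13cRA alone and 1.29 beside doxazosin. Its family member DPYSL2 had log2 differences of -0.66 with 13cRA alone and -0.31 beside doxazosin.

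Among genes of at least 300 CPM in 1 of the libraries, genes known from neurons lay on both sides. NNAT, the imprinted neuronatin gene, was lower, at 464 CPM in 13cRA and 1089 CPM in DMSO cells, and at 432 CPM in combination and 838 CPM in doxazosin cells. Others were higher. FNDC5, the precursor of irisin, stood at 485 CPM in 13cRA and 145 CPM in DMSO cells, and at 366 CPM in combination and 144 CPM in doxazosin cells. NDRG4, a cytoplasmic protein expressed in neurons and heart, stood at 366 CPM in 13cRA and 105 CPM in DMSO cells, and at 282 CPM in combination and 111 CPM in doxazosin cells. SOX4, an SRY-box factor of neural progenitors, had log2 differences of 1.29 with 13cRA alone and 0.72 beside doxazosin. NEFM, the medium neurofilament subunit, had log2 differences of 1.51 with 13cRA alone and 0.80 beside doxazosin. For SOX4 and NEFM the difference beside doxazosin was under 2-fold but on the same side, and in cells of 4000 to 4600 genes the differences with 13cRA alone were 0.57 and 0.71. MALAT1, a nuclear long noncoding RNA, stood at 2329.9 CPM in 13cRA and 981 CPM in DMSO cells, and at 1245 CPM in combination and 1094 CPM in doxazosin cells, with little difference beside doxazosin.

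Promoters of the higher genes were searched for a TATA box. TATAAA on the strand of the gene, within 50 to 11 bases before the start, was found in 8 of 220 promoters of genes at least 2-fold higher with 13cRA (3.64%), in 2 of 144 of genes at least 2-fold lower (1.39%), in 1.35% of promoters of all measured genes and in 2.81% of all RefSeq promoters in the table. The counts are small and carry no test. NR0B1 and NDRG4, described above, are 2 of the holders that were past 2-fold in both pairs; their 250 bases before the start are shown with the TATAAA in capitals (GRCh38.p14, chrX:30309391-30309640, minus strand, and chr16:58499893-58500142, plus strand).
NR0B1: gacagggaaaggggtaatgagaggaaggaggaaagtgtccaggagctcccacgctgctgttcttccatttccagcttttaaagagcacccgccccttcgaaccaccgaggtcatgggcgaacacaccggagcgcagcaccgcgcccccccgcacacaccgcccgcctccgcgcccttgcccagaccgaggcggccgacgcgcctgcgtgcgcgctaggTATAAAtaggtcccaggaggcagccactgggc
NDRG4: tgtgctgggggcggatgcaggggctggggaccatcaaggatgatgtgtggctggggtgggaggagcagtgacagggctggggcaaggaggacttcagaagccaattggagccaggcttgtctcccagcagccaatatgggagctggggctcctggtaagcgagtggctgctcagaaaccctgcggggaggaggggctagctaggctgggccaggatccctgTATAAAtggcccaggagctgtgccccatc

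On the lower side, 22 genes were past 2-fold in both pairs. IGSF1, a membrane glycoprotein of the immunoglobulin superfamily, stood at 212 CPM in 13cRA and 721 CPM in DMSO cells, and at 318 CPM in combination and 687 CPM in doxazosin cells. ARHGAP36, a GTPase-activating protein family member, stood at 45.1 CPM in 13cRA and 154 CPM in DMSO cells, and at 81.3 CPM in combination and 204 CPM in doxazosin cells. ADAMTS5, a metalloproteinase that cleaves aggrecan, stood at 15.9 CPM in 13cRA and 53.2 CPM in DMSO cells, and at 14.2 CPM in combination and 66.7 CPM in doxazosin cells. These 3 were lower in each library with 13cRA than in each library without it, and ADAMTS5 was counted in 14.1% of thinned 13cRA cells against 58.5% of DMSO cells. The axon guidance ligands SLIT2 and SLIT3 went opposite ways. SLIT3 stood at 8.35 CPM in 13cRA and 24.1 CPM in DMSO cells, and at 7.73 CPM in combination and 23.2 CPM in doxazosin cells. SLIT2 had log2 differences of 4.09 with 13cRA alone and 4.07 beside doxazosin. PPP2R2B, a regulatory subunit of protein phosphatase 2A, stood at 3.58 CPM in 13cRA and 25.6 CPM in DMSO cells, and at 7.397 CPM in combination and 24.7 CPM in doxazosin cells. DCLK3, a doublecortin-like kinase, stood at 5.12 CPM in 13cRA and 27.7 CPM in DMSO cells, and at 1.81 CPM in combination and 18.6 CPM in doxazosin cells. ESRRG, an orphan nuclear receptor, had log2 differences of -1.45 with 13cRA alone and -1.34 beside doxazosin. RIMS3, a presynaptic active zone protein, had log2 differences of -1.67 with 13cRA alone and -1.65 beside doxazosin. MBNL3, a muscleblind RNA-binding protein, had log2 differences of -1.30 with 13cRA alone and -1.75 beside doxazosin. The secreted WNT antagonists FRZB and SFRP1 were past 2-fold with 13cRA alone. FRZB stood at 7.996 CPM in 13cRA and 38.9 CPM in DMSO cells, and at 21.7 CPM in combination and 40.1 CPM in doxazosin cells, with a difference beside doxazosin of -0.86, or -1.01 without the 3 cells of highest count. SFRP1 had log2 differences of -1.23 with 13cRA alone and -0.44 beside doxazosin, and -0.94 in cells of 4000 to 4600 genes. Of 27 measured genes of the 60 on the WNT list, 4 were at least 2-fold lower and 0 higher, against 3.74% and 7.57% of all genes at 5 CPM. Of the 27, 5 reached 5 CPM in DMSO cells only. With 5 CPM required of the mean of the 4 libraries, 3 of 23 were at least 2-fold lower. The list as a whole lay slightly higher, with 19 genes higher and a median of 0.20 with 13cRA alone and 0.11 beside doxazosin. Of all genes at 5 CPM, 50.1% were higher with 13cRA alone.

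Another set of genes was lower in the 13cRA library alone and within 2-fold of its control beside doxazosin. TUBA1B, an alpha-tubulin gene, stood at 288 CPM in 13cRA and 997 CPM in DMSO cells, and at 795 CPM in combination and 993 CPM in doxazosin cells. GAPDH, the glycolytic enzyme, stood at 1419 CPM in 13cRA and 3482 CPM in DMSO cells, and at 2959 CPM in combination and 3763 CPM in doxazosin cells. CDK4, the G1 cyclin-dependent kinase, stood at 137 CPM in 13cRA and 344 CPM in DMSO cells, and at 308 CPM in combination and 343 CPM in doxazosin cells. In each of these the combination library lay nearer to the 2 libraries without 13cRA than to the 13cRA library. TUBA1B and GAPDH have near-identical relatives or processed copies, which makes their counts uncertain. Enzymes of the tricarboxylic acid cycle and its entry points had the lowest median of the lists, -0.49 over 41 of 44 genes, with 32 lower, 4 of them by 2-fold or more (3.74% of all genes at 5 CPM). Beside doxazosin the median was -0.12. Of all genes at 5 CPM, 49.9% were lower with 13cRA alone. MDH2, mitochondrial malate dehydrogenase, stood at 223 CPM in 13cRA and 484 CPM in DMSO cells, and at 444 CPM in combination and 462 CPM in doxazosin cells. CS, citrate synthase, had log2 differences of -0.91 with 13cRA alone and -0.24 beside doxazosin.

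Proteasome subunits had a median of -0.28 over 44 of 48 genes, 36 of them lower and 0 by 2-fold, and a median of -0.01 beside doxazosin. Lower by any amount with 13cRA alone were 49.9% of all genes at 5 CPM. The list of thioredoxin, glutathione and antioxidant enzymes had a median of -0.28 with 5 of 45 measured genes (of 54 listed) at least 2-fold lower, against 3.74% of all genes at 5 CPM, and 0.06 beside doxazosin. Of the 45, 3 reached 5 CPM in DMSO cells only. With 5 CPM required of the mean of the 4 libraries, 4 of 43 were at least 2-fold lower. PRDX3, the mitochondrial peroxiredoxin, stood at 51.2 CPM in 13cRA and 114 CPM in DMSO cells, and at 125 CPM in combination and 141 CPM in doxazosin cells. CAT, catalase, had log2 differences of -1.11 with 13cRA alone and -0.57 beside doxazosin. Small GTPase and vesicle traffic genes had a median of -0.30 with 8 of 71 measured genes (of 79 listed) at least 2-fold lower, against the same 3.74%, and a median of -0.08 beside doxazosin. Of the 71, 6 reached 5 CPM in DMSO cells only. With 5 CPM required of the mean of the 4 libraries, 7 of 67 were at least 2-fold lower. The list includes the COPII coat gene SEC23A, which carries cargo out of the endoplasmic reticulum and stood at 15.4 CPM in 13cRA and 40.2 CPM in DMSO cells, and at 52.3 CPM in combination and 56.9 CPM in doxazosin cells. ARF4, a Golgi GTPase, had log2 differences of -1.05 with 13cRA alone and -0.33 beside doxazosin. Nucleoporin genes, taken as the 19 measured symbols beginning NUP, had a median of -0.45, with 17 lower and none by 2-fold, and -0.09 beside doxazosin. Over all genes, 53.6% were lower with 13cRA alone at 20 CPM and 49.9% at 5 CPM.

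On the other side of 0, enzymes that acetylate, deacetylate, methylate or demethylate histones had a median of 0.37 over 62 of 65 genes, 48 higher and 7 by 2-fold or more, where 7.57% of all genes at 5 CPM were. Higher by any amount with 13cRA alone were 50.1% of all genes at 5 CPM. Of the 62, 6 reached 5 CPM in 13cRA cells only. With 5 CPM required of the mean of the 4 libraries, 5 of 57 were at least 2-fold higher. Beside doxazosin the median of the 62 was 0.05. KAT6B, a histone acetyltransferase, had log2 differences of 1.36 with 13cRA alone and 0.96 beside doxazosin. HDAC1, a histone deacetylase, had log2 differences of -0.76 with 13cRA alone and -0.40 beside doxazosin. In thinned cells with 4000 to 4600 detected genes in every library, 92 13cRA cells and 105 DMSO cells, the medians with 13cRA alone moved towards 0: -0.25 for the tricarboxylic acid cycle, -0.07 for the proteasome, -0.18 for antioxidant enzymes, -0.24 for vesicle traffic and 0.23 for the histone enzymes. In the same cells MDH2 had a difference of -0.77, GAPDH -0.73 and CDK4 -0.83, all under 2-fold, as were PRDX3 at -0.88 and ARF4 at -0.74. Still past 2-fold, though each was smaller than over all cells, were TUBA1B at -1.05, SEC23A -1.22, IGSF1 -1.50, FOXO3 1.67 and POU3F1 2.30.

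**Figure D2:**
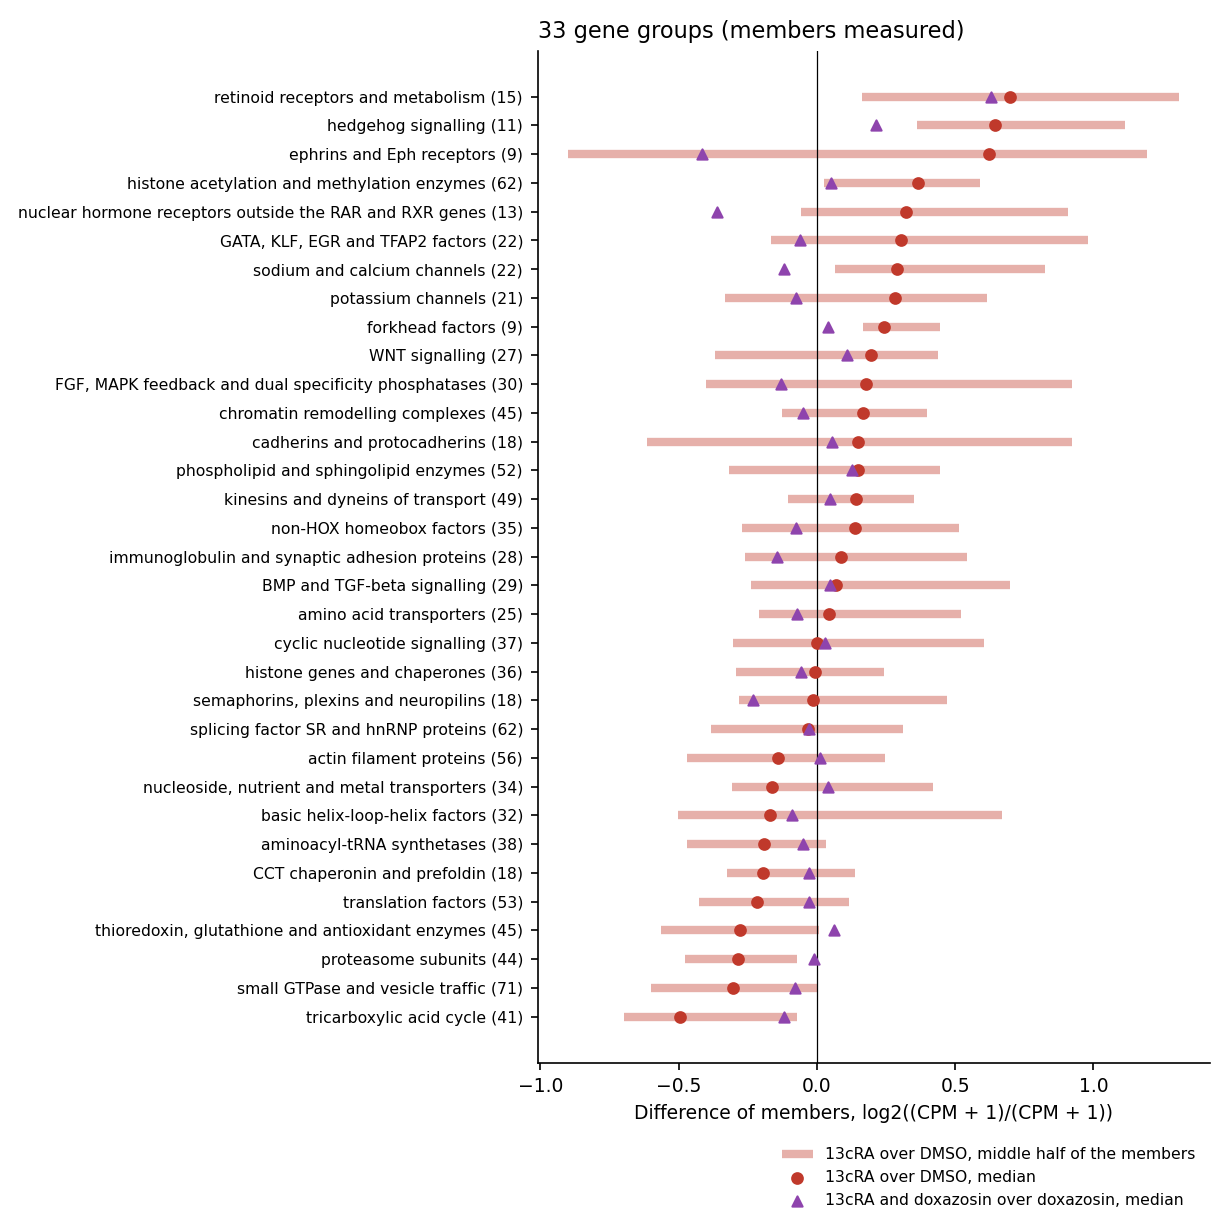
For each of 33 gene lists, the circle is the median log2 difference of its measured members for 13cRA over DMSO, the bar spans their quartiles, and the triangle is the median of the same members for the combination over doxazosin. Retinoid receptors and metabolism lie at 0.70 and 0.63, while the tricarboxylic acid cycle lies at -0.49 and -0.12.

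For some single genes the difference with 13cRA alone was larger than the difference beside doxazosin. ATF3, a stress-induced AP-1 family factor, stood at 49.04 CPM in 13cRA and 13.2 CPM in DMSO cells, and at 15.8 CPM in combination and 19.5 CPM in doxazosin cells. TSPYL2, a nucleosome assembly family protein, stood at 55.8 CPM in 13cRA and 5.15 CPM in DMSO cells, and at 24.5 CPM in combination and 7.97 CPM in doxazosin cells, past 2-fold in both pairs but with a smaller difference beside doxazosin. PLK2, a polo-like kinase, stood at 48.99 CPM in 13cRA and 7.599 CPM in DMSO cells, and at 31.4 CPM in combination and 21.6 CPM in doxazosin cells. Its difference beside doxazosin was 0.52, but 2.35 without the 3 cells of highest count, close to 2.64 with 13cRA alone. KIF13A, a kinesin, stood at 63.2 CPM in 13cRA and 15.2 CPM in DMSO cells, and at 19.8 CPM in combination and 17.3 CPM in doxazosin cells. PCDH9, a protocadherin, stood at 68.3 CPM in 13cRA and 12.8 CPM in DMSO cells, and at 17.01 CPM in combination and 15.3 CPM in doxazosin cells. KIF13A and PCDH9 rest on few cells: without the 3 cells of highest count in each library their differences with 13cRA alone were 0.63 and 0.99. ANKRD36C stood at 80.2 CPM in 13cRA and 19.4 CPM in DMSO cells, and at 21.01 CPM in combination and 28.7 CPM in doxazosin cells, and its near-identical relatives in the genome make its count uncertain.

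Seen cell by cell, most 13cRA cells lay outside the range that held most DMSO cells. Each thinned cell was scored by the mean log2(CPM/10 + 1) of the 138 genes that were at least 2-fold higher in combination than in doxazosin cells, a choice that used neither library scored here. The median score was 1.24 in 13cRA cells and 0.707 in DMSO cells, with standard deviations over cells of 0.311 and 0.149. Of the 13cRA cells, 207 of 249 (83.1%, exact 95% binomial interval 77.9 to 87.6%, counting error only) scored above the 95th percentile of DMSO cells. Among cells of 4000 to 4600 genes the share was 81.5%, but with 276 score genes chosen anew in such cells. It is therefore not a reading of the same 138 genes. With the 71 genes that were lower in combination than in doxazosin cells, 82.7% of 13cRA cells (77.5 to 87.2%) scored below the 5th percentile of DMSO cells. Of combination cells, in whose library these genes were chosen as lower, 51.9% scored below the same cut. The part that fewer genes per 13cRA cell has in the shares of 13cRA cells past either cut was not tested. For 23 genes under 5 CPM in doxazosin and at 20 CPM or more in combination cells, among them CCBE1, NR0B1 and RARB, the median cell held counts of 5 of them with 13cRA and 1 with DMSO, and no 13cRA cell held more than 12. At least 3 of them were counted in 78.3% of 13cRA cells and 4.88% of DMSO cells.

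**Figure D3:**
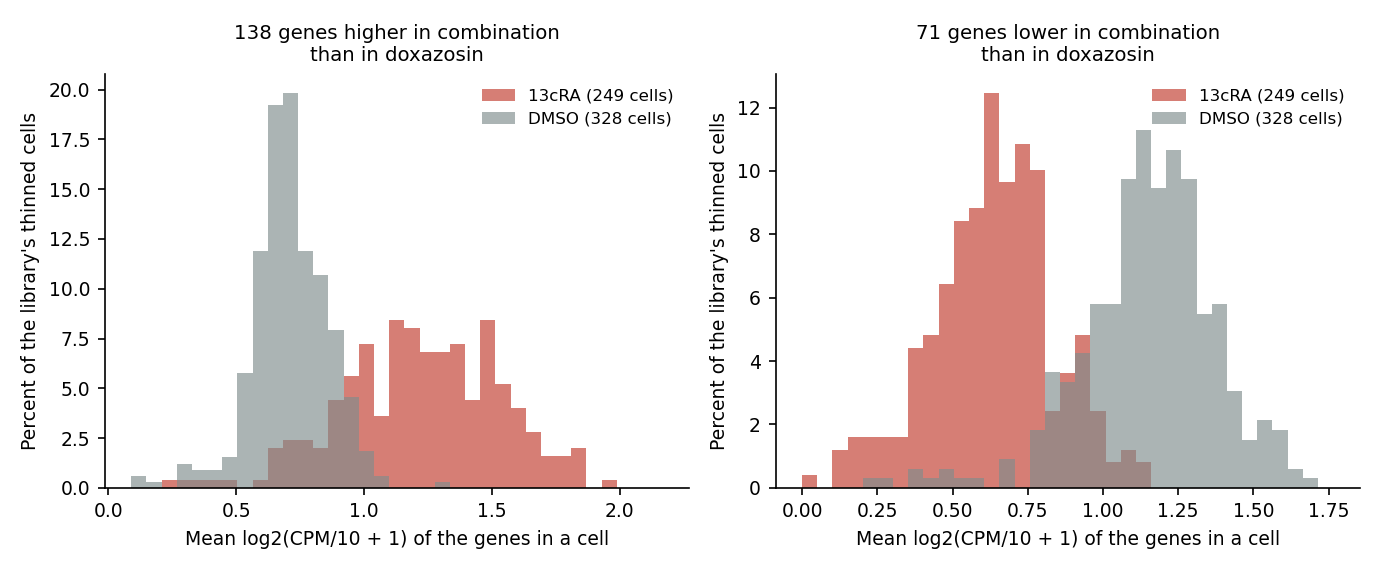
Histograms of thinned 13cRA and DMSO cells by their mean log2(CPM/10 + 1) over 138 genes higher (left) and 71 genes lower (right) in combination than in doxazosin cells, in percent of each library's cells. On the left the 13cRA cells centre on 1.24 and the DMSO cells on 0.707; on the right they centre on 0.642 and 1.16, and in both panels the distributions overlap.

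The named genes are described next by their share of cells and by their count in the cells that held them. For the 40 named genes with the highest difference, the ratio of cell shares had a median of 2.23 (13cRA over DMSO), and the mean count in the cells that held one had a median ratio of 2.45. For the 40 with the lowest difference, the share had a median ratio of 0.363, while the mean count in the cells that held one had a median ratio of 0.967. FOXO3 was counted in 67.9% of 13cRA cells (61.7 to 73.6%) and 30.5% of DMSO cells (25.5 to 35.8%), and ARHGAP36 in 22.5% (17.5 to 28.2%) and 66.8% (61.4 to 71.8%). The naming rule required the share to move with the level. In libraries where 13cRA cells held fewer genes, it passed 752 higher and 3141 lower genes. The ratios of the higher and lower genes therefore cannot be told apart from this rule and from the genes held per cell.

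**Figure D4:**
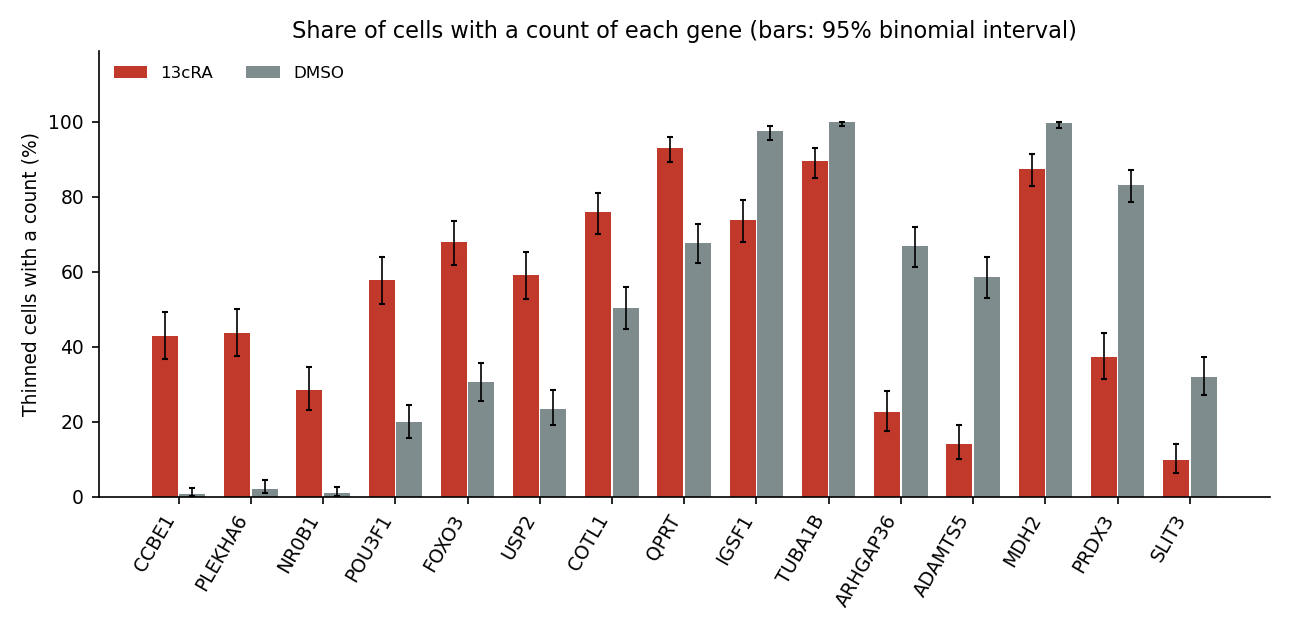
Bars give the percent of thinned cells with at least 1 count of a gene in the 13cRA library (left of each pair) and the DMSO library (right), with exact 95% binomial intervals that cover counting error only. CCBE1, PLEKHA6 and NR0B1 are nearly absent from DMSO cells, QPRT reaches 93.2% of 13cRA cells, and MDH2 and TUBA1B are still found in 87.6% and 89.6% of 13cRA cells although their levels are lower.

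Across all genes, the difference varied with the kind of transcript. Of 109 measured long noncoding genes, 25 (22.9%) were at least 2-fold higher in 13cRA cells than in DMSO cells and 2 lower, against 3.98% and 2.75% of 6261 protein-coding genes, and their median was 0.38 without and 0.14 with doxazosin. Antisense genes are part of this count, and where counting ignored the strand their reads cannot be told from those of the gene opposite. The 109 also include genes that reached 20 CPM in 13cRA cells only. Level was not matched between long noncoding and protein-coding genes. Protein-coding genes among the longest 20% by exon length had a median of 0.14 and those among the shortest 20% -0.16, where the second pair gave 0.01 and 0.00371. Genes among the lowest 20% by level were past 2-fold most often, 12.01% higher and 5.42% lower, against 1.01% and 1.63% among the highest 20%. A gene of low level was measured only if it still reached 20 CPM in 1 of the 2 libraries. That minimum favours genes that differ, so these shares are partly set by it. Among genes at least 2-fold higher with 13cRA, 15 pairs lay within 100 kb of each other. Besides RGS16 and RGS8 they include TLX2, a homeobox factor of enteric neurons, and DQX1, a putative helicase gene, 983 bases apart on opposite strands of chromosome 2. TLX2 had log2 differences of 1.57 with 13cRA alone and 0.74 beside doxazosin. DQX1 had log2 differences of 1.95 with 13cRA alone and 1.90 beside doxazosin. Markers of other cell types stayed low: leukocyte and epithelial lists had no gene at 5 CPM, with summed levels of 1.81 and 2.83 CPM in 13cRA cells and 1.54 and 1.41 CPM in DMSO cells. The endothelial list summed to 23.1 CPM in 13cRA cells and 1.45 CPM in DMSO cells, of which CLDN5, a tight junction claudin, made 19.7 and 0.5398 CPM while PECAM1, CDH5, VWF, KDR and TEK were each under 2 CPM. The fibroblast list summed to 24.9 and 13.4 CPM and the Schwann cell list to 10.96 and 1.22 CPM in 13cRA and DMSO cells, with SOX10 and S100B, which define Schwann cells, under 1 CPM in both.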

How the data were processed

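The authors deposited 1 table of raw counts per gene and cell of the whole series. The submitters' processing notes name the aligner STAR 2.7.8a, the read trimmer fastp 0.23.3, bcl2fastq, featureCounts and Seurat 4.3.0. They list GRCh38.p13 and GRCh37 without saying which was used for what. The strand setting of the counting is not given in the sources, so antisense and overlapping genes are uncertain. The deposited counts hold reads without molecular identifiers. Cells were assigned by the start of their column names; 0 columns of per-sample values were left unused.

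Counts of kept cells were summed per library and scaled to CPM, with a pseudocount of 1 CPM on the log2 scale. Of 60651 gene IDs, 59277 had a symbol of their own; 58405 matched GENCODE 29, used for biotype, length and position. Cells were thinned to 34000 counts for shares, scores and genes per cell, which left out 69 shallower 13cRA cells and 25 DMSO cells. Intervals at 95% are exact Poisson for CPM and Clopper-Pearson for shares, and cover counting error only. No test was run, since each treatment has 1 sample. Scaling alternatives used edgeR 4.0.16 (TMM) and DESeq2 1.42.0 size factors in R 4.3.3; the rest used Python 3.11.15. The steps were tested on simulated data. Doublets were not called.

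Open for naming were genes of at least 20 CPM in 1 of the 2 libraries and a count in at least 20% of thinned cells of 1 library, with 1 direction in summed CPM, mean per-cell CPM and share of cells: the 40 highest and 40 lowest, the 15 highest and 15 lowest of at least 300 CPM, up to 6 per gene list, the 10 per direction that depart most between the pairs, and the retinoid receptors. HROB and PHF8 were named for a promoter motif after their values were seen, and marker genes come from the marker lists. Some genes open for naming are not reported here. The comparison, gene lists and tests were chosen with earlier results of these data known.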

Additional observations from a re-analysis of the deposited data

Results flagged for a closer look

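A set of named genes was past 2-fold with 13cRA alone and on the opposite side beside doxazosin; none of these differences between the pairs was tested, since each library has no replicate. Without the 3 cells of highest count in each library, SART1, ANKRD36C, ELOVL1 and ACO1 lay on the same side in both pairs, so their opposite side rests on few cells. ANKRD36C, an ankyrin repeat gene with near-identical relatives that make its count uncertain, had a log2 difference of 2.00 for 13cRA over DMSO and -0.43 for the combination over doxazosin, or 1.58 and 0.12 without the 3 cells of highest count. ATF3, the stress-induced AP-1 family factor, had a log2 difference of 1.82 for 13cRA over DMSO and -0.29 for the combination over doxazosin, or 1.57 and -0.12 without the 3 cells of highest count. HSPA1B, an HSP70 gene with a near-identical copy that makes its count uncertain, had a log2 difference of 1.17 for 13cRA over DMSO and -0.67 for the combination over doxazosin, or 0.85 and -0.29 without the 3 cells of highest count. SART1, a splicing factor gene of the tri-snRNP, had a log2 difference of 1.13 for 13cRA over DMSO and -0.89 for the combination over doxazosin, or 1.12 and 0.27 without the 3 cells of highest count. AGAP3, an ARF GTPase-activating protein gene, had a log2 difference of 1.09 for 13cRA over DMSO and -0.65 for the combination over doxazosin, or 1.09 and -0.46 without the 3 cells of highest count. GPX3, the secreted glutathione peroxidase gene, had a log2 difference of -1.06 for 13cRA over DMSO and 0.30 for the combination over doxazosin, or -1.25 and 0.26 without the 3 cells of highest count. ELOVL1, a fatty acid elongase gene, had a log2 difference of -1.09 for 13cRA over DMSO and 0.45 for the combination over doxazosin, or -1.42 and -0.21 without the 3 cells of highest count. DIMT1, a ribosomal RNA methyltransferase gene, had a log2 difference of -1.33 for 13cRA over DMSO and 0.46 for the combination over doxazosin, or -1.39 and 0.07 without the 3 cells of highest count. ACO1, the cytosolic aconitase and iron regulatory protein gene, had a log2 difference of -1.37 for 13cRA over DMSO and 0.36 for the combination over doxazosin, or -1.45 and -0.08 without the 3 cells of highest count. In cells of 4000 to 4600 genes the differences with 13cRA alone were under 2-fold for AGAP3 (0.13), HSPA1B (0.10) and SART1 (0.93). The same held for ELOVL1 (-0.19), ACO1 (-0.43), DIMT1 (-0.54) and GPX3 (-0.62). ANKRD36C (1.78) and ATF3 (1.00) stayed past 2-fold in these cells.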

How the results depend on the processing

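With TMM factors, DESeq2 size factors, totals without mitochondrially encoded genes, no cell filter or a minimum of 2000 genes per cell, the counts of genes past 2-fold stayed within 1.5 times of those reported. The 283 higher genes became 1568 with no minimum level, 43 at 100 CPM or more, 165 with the minimum set on the mean of the 4 libraries, and 133 without each gene's 3 highest cells. The 174 lower genes became 565 with no minimum level, 39 at 100 CPM, 108 with a pseudocount of 5 CPM and 289 without the 3 highest cells. The share of genes higher in combination that were also higher with 13cRA alone (89.1%) became 98.6% without the 3 highest cells, 100% at 100 CPM, 76.1% in cells of 4000 to 4600 genes, 94.9% in thinned cells, 96.9% by the mean of per-cell CPM and 77.3% with no minimum. The share of lower genes (73.2%) became 100% without the 3 highest cells, 100% at 100 CPM (of 6 genes), 57.9% in cells of 4000 to 4600 genes, 89.2% in thinned cells and 94.7% by the mean of per-cell CPM. Over all genes of the second pair the main setting gave 43.6% higher and 56.4% lower with 13cRA alone, and the 57.9% lies near the latter. The share over all genes was not computed in each alternative, so how far these shares stand out there is not known. The share of 13cRA cells above the 95th percentile of DMSO cells (83.1%) became 89.6% with the 73 score genes chosen without the 3 highest cells. The cells scored were the same there, and each alternative chose its own score genes. Among genes past 2-fold and lists with a median at least 0.25 from 0, signs turned for ASF1B (0.10) and KIF13A (-0.14) in cells of 4000 to 4600 genes, and for the medians of GATA, KLF, EGR and TFAP2 factors (-0.0537), other nuclear hormone receptors (-0.14), potassium channels (-0.25) and ephrins (-0.69) without the 3 highest cells. Potassium channels also turned in cells of 4000 to 4600 genes (-0.0128), and ephrins there (-0.001707), in thinned cells (-0.32), by the mean of per-cell CPM (-0.30) and with the minimum on the mean of 4 libraries (-0.25). Nearer to 0, 14 of 138 other genes open for naming and 14 of 22 other lists turned sign in at least 1 alternative. The cause of these moves was not tested. Of 136 genes open for naming and past 2-fold, 63 fell under 2-fold in at least 1 alternative. The alternatives without the 3 highest cells, in cells of 4000 to 4600 genes and with the minimum on the mean of 4 libraries were chosen after seeing the data. No paired analysis was possible because the labels give no replicate numbers that pair samples and each treatment has 1 sample.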

Other observations

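Families of genes outside the lists also lay to one side with 13cRA alone. Genes of the cytosolic ribosome were slightly higher: the 59 measured genes whose symbols begin RPL had a median log2 difference of 0.18 with 13cRA alone and 0.12 beside doxazosin, 47 of them higher with 13cRA alone. The 42 genes beginning RPS had medians of 0.25 with 13cRA alone and 0.14 beside doxazosin. None of these genes was past 2-fold with 13cRA alone, and since many such symbols belong to processed copies, their counts are uncertain. Genes of the mitochondrial ribosome lay on the other side: the 45 genes beginning MRPL had a median of -0.17, with 32 lower, and 0.02 beside doxazosin. Over all genes, 46.4% were higher and 53.6% lower with 13cRA alone at 20 CPM, and 50.1% and 49.9% at 5 CPM. Sodium and calcium channel genes, which carry the currents of excitable cells, had a median of 0.29 over 22 of 58 genes. Of these, 5 were at least 2-fold higher, where 7.57% of all genes at 5 CPM were; 6 of the measured genes reached 5 CPM in 13cRA cells only, and the median beside doxazosin was -0.12.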
